A study of Mus musculus with 4 samples.

Results

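The MHC class II genes were followed in sorted β-cells of female NOD mice, a strain that develops autoimmune diabetes, on 4 Affymetrix Clariom D mouse arrays. Tyk2-/- and Tyk2+/+ mice were compared at 11w and at 6w (w, weeks of age), with 1 array for each of the 4 conditions. The cells of several mice had been pooled for each array after sorting for a zinc dye (FluoZin-3-AM) and a mitochondrial membrane potential dye (TMRE) and against the leukocyte antigen CD45 and dead cells. All mice shared the NOD background, no treatment is given in the labels, and the Tyk2-/- mice carried a germline knockout, derived from 129/Sv and crossed through C57BL/6J onto NOD, that affects TYK2 in every cell and not only in β-cells. The genes were chosen by their symbols, 10 in number, of which 9 had a feature with that symbol alone, out of 30176 genes read from 65956 features. These were H2-Aa, H2-Ab1, H2-Eb1, H2-Eb2, H2-DMa, H2-DMb1, H2-Oa, H2-Ob and Ciita, each with 1 feature, so no choice between features was made by signal. Cd74, the invariant chain that guides new class II molecules to the endosome, had no feature of its own, because its only feature was also annotated with the microRNA gene Mir5107. The family was selected on the signals and age differences of these same arrays, so its values are given as a description and no test was made.

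MHC class II molecules present peptides from endosomes to CD4+ T cells. An α chain and a β chain pair with the invariant chain, which is later degraded and exchanged for a peptide with the help of the H2-DM molecule, while H2-O restrains H2-DM. Dendritic cells, macrophages and B cells make class II molecules constitutively, and other cell types can do so when interferon-γ induces CIITA, the coactivator that is recruited to class II promoters by the factors bound to their X and Y boxes. NOD mice make I-A from H2-Aa and H2-Ab1 but lack I-E, because their H2-Ea gene is not transcribed and the H2-Eb1 chain is left without its partner.

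The X and Y boxes are what the promoters of this family are known to share, and they are shown here for the members that the RefSeq promoter table (build GRCm38.p6, from C57BL/6J and not from NOD mice) listed. It held 8 windows for 7 of the members and no entry for H2-Ab1, Ciita or Cd74. In the 250 bases before each start, TGATTGG, the core letters of the Y box, and GNAAC, letters of the X box, were searched on both strands. The letters and their distance were chosen after the sequences had been read, so the match is a description. Each line runs 5′ to 3′ along the gene's strand, with GNAAC and TGATTGG in capitals.
H2-Eb1: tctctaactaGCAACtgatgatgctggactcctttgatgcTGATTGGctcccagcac
H2-Aa: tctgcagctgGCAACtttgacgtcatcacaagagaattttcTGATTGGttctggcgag
H2-Eb2: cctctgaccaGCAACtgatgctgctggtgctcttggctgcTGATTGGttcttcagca
H2-DMb1: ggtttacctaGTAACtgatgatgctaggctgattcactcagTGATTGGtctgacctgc
H2-Ob: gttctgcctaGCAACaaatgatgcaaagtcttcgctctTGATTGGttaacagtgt
H2-Oa: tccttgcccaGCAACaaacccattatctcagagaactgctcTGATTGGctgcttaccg
These stretches lie at chr17:34305766-34305822 (+ strand) for H2-Eb1, chr17:34287857-34287914 (− strand) for H2-Aa, chr17:34325533-34325589 (+) for H2-Eb2, chr17:34153087-34153144 (+) for H2-DMb1, chr17:34238808-34238862 (+) for H2-Ob and chr17:34092293-34092350 (+) for H2-Oa. In all 6 the GNAAC letters stood 23 to 26 bases before TGATTGG. Neither of the 2 windows of H2-DMa held TGATTGG. Among all 32851 windows of the table, 7.23% held TGATTGG and 0.0883% (29 windows) held both at that distance. The pair stood before H2-Eb1, the one class II gene that was called higher with age, and before 5 that were not called.

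The arrays differed in overall signal. Log2 differences and calls used signals that were not centred, except where values are given relative to the array medians. The median signal over all features was 17.5 (Tyk2-/-) and 17.3 (Tyk2+/+) at 11w, against 16.2 (Tyk2-/-) and 15.7 (Tyk2+/+) at 6w. The array medians were therefore higher at 11w than at 6w by 0.11 on the log2 scale in Tyk2-/- and by 0.15 in Tyk2+/+ mice, and class II signals are given as multiples of the median of their own array as well. The signals of Tyk2, 17.1 (Tyk2-/-) and 18.8 (Tyk2+/+) at 11w and 16.8 (Tyk2-/-) and 15.5 (Tyk2+/+) at 6w, do not check the genotypes, because it is not known which exons the feature reads. Of the β-cell markers, Ins2 (insulin) had signals between 93930 and 101685 and Iapp, another product of insulin granules, reached the top signal of every array, whereas Pdx1 and Mafa, transcription factors of mature β-cells, lay between 12.4 and 18.8, around the array medians. The 6w Tyk2+/+ array stood apart in other markers of mature β-cells, with Ucn3 at 1067 against 22.0 to 34.9 on the other arrays, G6pc2 at 605 against 87.5 to 189, Pcsk1 at 101 against 27.3 to 52.3 and Slc2a2 at 79.1 against 21.7 to 34.5. The age comparison within Tyk2-/- mice does not use that array. A call required a Z score beyond 2 in size together with a ratio above 1.5 (higher) or below 0.66 (lower). To obtain the Z score, the log2 difference between a pair of arrays was scaled by the SD of this difference among features of similar brightness. It is no test, and with 1 array per condition no p-value is given.

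Every measured class II gene had a higher signal on each 11w array than on either 6w array. The array medians had the same order, so this order alone sets no gene apart. The chains H2-Ab1, H2-Aa and H2-Eb1 had the largest ratios with age, 1.86 to 3.36 within a genotype. H2-Eb1 alone was called higher, in both genotypes. The genes of peptide exchange differed less with age, Ciita lay below the array median throughout, and no class II gene was called between Tyk2-/- and Tyk2+/+ β-cells at 11w or at 6w. In such pools of cells, fewer cells that carry a transcript and less of it per cell cannot be told apart.

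H2-Ab1, the β chain of I-A, had signals of 284 (Tyk2-/-) and 264 (Tyk2+/+) at 11w, against 93.6 (Tyk2-/-) and 78.5 (Tyk2+/+) at 6w. Both 11w arrays were thus above both 6w arrays, as for every other measured class II gene. Even the 6w signals stood above their array medians, at 5.77 times the median in Tyk2-/- and 5.01 times in Tyk2+/+ mice. At 11w the signal was 16.3 times the array median in Tyk2-/- and 15.2 times in Tyk2+/+ mice. The log2 difference with age was 1.60 in Tyk2-/- (ratio 3.04) and 1.75 in Tyk2+/+ mice (ratio 3.36). Differences at least as high were found for 0.338% and 0.232% of all genes. Features of like mean signal differed widely, and the Z scores of 1.30 (Tyk2-/-) and 1.46 (Tyk2+/+) did not pass the criterion.

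H2-Aa, the α chain of I-A, had signals of 46.0 (Tyk2-/-) and 61.3 (Tyk2+/+) at 11w, against 24.7 (Tyk2-/-) and 29.3 (Tyk2+/+) at 6w. The order of ages was the same as for its partner chain, and within each age the Tyk2-/- array was the lower one. Relative to the array medians these signals were 2.64, 3.54, 1.53 and 1.87 times. The log2 difference with age was 0.90 in Tyk2-/- (ratio 1.86, Z score 1.44) and 1.07 in Tyk2+/+ mice (ratio 2.10, Z score 1.32), and neither was called.

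H2-Eb1, the β chain of I-E, had signals of 38.7 (Tyk2-/-) and 51.0 (Tyk2+/+) at 11w, against 16.3 (Tyk2-/-) and 16.2 (Tyk2+/+) at 6w. The 6w signals lay at the array medians (1.01 and 1.03 times), and those at 11w were 2.21 times the median in Tyk2-/- and 2.94 times in Tyk2+/+ mice. The gene rose by 1.25 in Tyk2-/- (ratio 2.37, Z score 2.70) and by 1.65 in Tyk2+/+ mice (ratio 3.15, Z score 3.01) on the log2 scale, or by 1.14 and 1.51 relative to the array medians. Both 11w arrays were thus above both 6w arrays, an order that all measured class II genes shared. Whether the 6w signals were above background was not tested, and if they were not, these ratios are lower bounds. H2-Eb1 was the 1 member of 9 called higher in either genotype. Over all 30176 genes, 1.62% were called higher in Tyk2-/- and 2.14% in Tyk2+/+ mice, and nothing is read from this comparison because the family was chosen with these differences known. A ratio above 2 alone was found for 2 members (H2-Ab1 and H2-Eb1) in Tyk2-/- mice, against 1.43% of all genes, and for 3 (H2-Aa as well) in Tyk2+/+ mice, against 1.27%. No member had a ratio below 0.5, against 3.69% and 4.31% of all genes, and none was called lower, against 1.35% and 1.45%.

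H2-Eb2, a further β chain gene next to H2-Eb1, had signals of 16.02 (Tyk2-/-) and 20.02 (Tyk2+/+) at 11w, against 15.4 (Tyk2-/-) and 15.9 (Tyk2+/+) at 6w. It lay between 0.917 and 1.15 times the array medians, and its log2 difference with age was 0.06 in Tyk2-/- and 0.33 in Tyk2+/+ mice. Its 11w Tyk2-/- signal was barely above its 6w Tyk2+/+ signal of 15.9, so only the 11w Tyk2+/+ array was set apart.

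**Figure D1:**
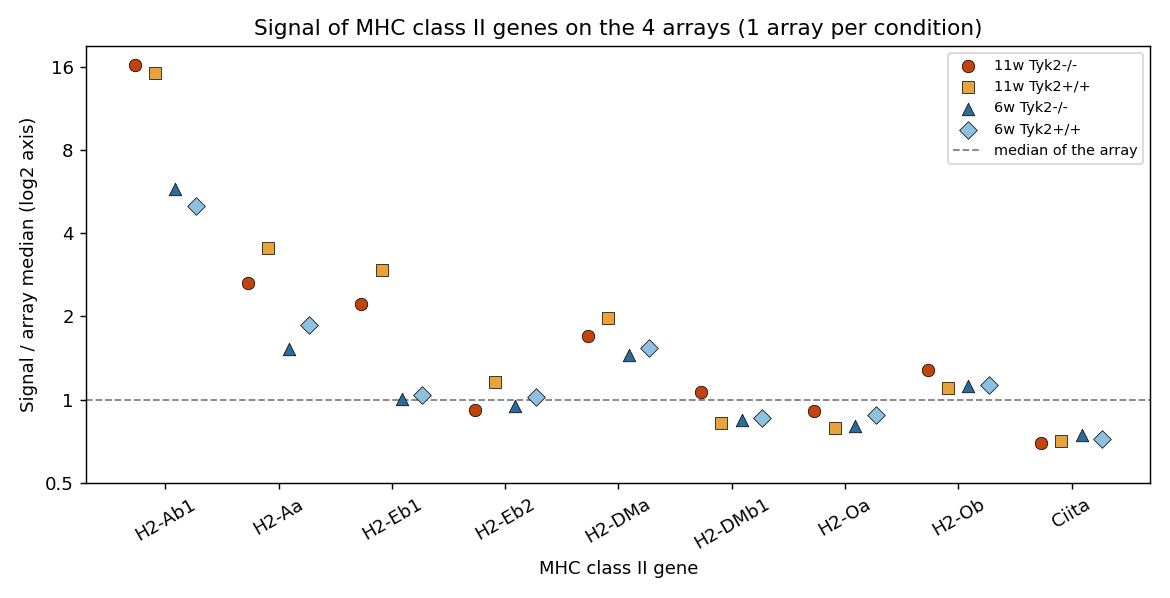
Signal of each MHC class II gene over the median of its array (log2 axis) on the 4 arrays, 1 point per array, with the array median as a dashed line. H2-Ab1 stands at 16.3 and 15.2 times the median at 11w and 5.77 and 5.01 times at 6w (Tyk2-/- and Tyk2+/+ each), H2-Eb1 leaves the median line only at 11w, and Ciita stays below it on all 4 arrays.

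The genes of peptide exchange were H2-DMa and H2-DMb1, the chains of H2-DM, and H2-Oa and H2-Ob, the chains of H2-O. H2-DMa had signals of 29.6 (Tyk2-/-) and 34.2 (Tyk2+/+) at 11w, against 23.6 (Tyk2-/-) and 24.0 (Tyk2+/+) at 6w, with log2 differences with age of 0.33 (Tyk2-/-) and 0.51 (Tyk2+/+). Both 11w signals were above both 6w signals, and all 4 were 1.46 to 1.97 times the array medians. H2-DMb1 had signals of 18.6, 14.3, 13.6 and 13.5 in the same order, so that only the 11w Tyk2-/- array exceeded its median (1.06 times). Its log2 difference with age was 0.45 in Tyk2-/- mice and 0.09 in Tyk2+/+ mice. The 2 chains of H2-DM thus had their highest signal on different arrays, H2-DMa on 11w Tyk2+/+ and H2-DMb1 on 11w Tyk2-/-.

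H2-Oa had signals of 15.9 (Tyk2-/-) and 13.7 (Tyk2+/+) at 11w, against 13.0 (Tyk2-/-) and 13.7 (Tyk2+/+) at 6w, all below the array medians. H2-Ob had signals of 22.3, 19.1, 18.1 and 17.6 in the same order, 1.10 to 1.28 times the medians. With age, H2-Oa differed by 0.29 (Tyk2-/-) and 0.00 (Tyk2+/+) and H2-Ob by 0.30 (Tyk2-/-) and 0.11 (Tyk2+/+) on the log2 scale. None of the 4 genes of peptide exchange was called in any comparison.

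Ciita, the coactivator of class II transcription, had signals of 12.2 (Tyk2-/-) and 12.3 (Tyk2+/+) at 11w, against 12.1 (Tyk2-/-) and 11.3 (Tyk2+/+) at 6w. These were 0.697 to 0.745 times the array medians, between the 15.8th and the 20.3rd percentile of all features. The log2 difference with age was 0.01 in Tyk2-/- and 0.13 in Tyk2+/+ mice. Ciita was not called in any comparison.

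Over the 9 members the median log2 difference with age was 0.33 in Tyk2-/- and 0.33 in Tyk2+/+ mice, beside 0.05 and 0.07 over all genes. The difference was above 0 for 9 of 9 members in both genotypes. Over all genes, 59.6% in Tyk2-/- and 61.6% in Tyk2+/+ mice had a difference of 0 or more. Relative to the array medians it was above 0 for 7 in Tyk2-/- and 5 in Tyk2+/+ mice, the others being H2-Eb2 and Ciita in Tyk2-/- mice and H2-DMb1, H2-Oa, H2-Ob and Ciita in Tyk2+/+ mice. The difference between the 2 age changes could not be tested with 1 array per condition.

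**Figure D2:**
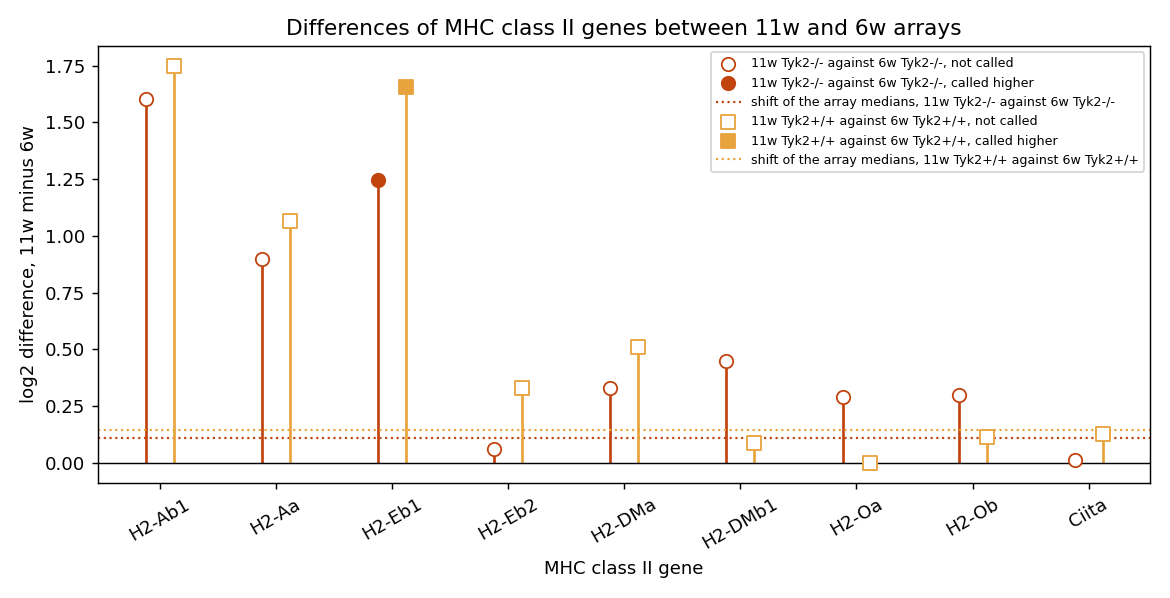
Log2 difference between the 11w and the 6w array for each MHC class II gene, in Tyk2-/- (circles) and Tyk2+/+ mice (squares), filled where the gene was called higher, with dotted lines at the shift of the array medians, 0.11 in Tyk2-/- and 0.15 in Tyk2+/+ mice. H2-Ab1, H2-Aa and H2-Eb1 lie between 0.90 and 1.75, and the other genes between 0.00 and 0.51.

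Between genotypes no class II gene was called. At 11w the log2 difference (Tyk2-/- minus Tyk2+/+) was −0.41 for H2-Aa, −0.40 for H2-Eb1, −0.32 for H2-Eb2 and −0.21 for H2-DMa, and 0.38 for H2-DMb1, 0.22 for H2-Ob, 0.21 for H2-Oa and 0.11 for H2-Ab1. Ciita had a difference of −0.01. The largest Z scores in size were 1.34 (H2-DMb1) and −1.02 (H2-Eb2), so 0 of 9 members were called, against 1.51% of all genes called higher and 1.35% called lower in 11w Tyk2-/- β-cells. No member had a ratio above 2 or below 0.5, against 2.06% and 1.58% of all genes. The 2 chains of I-A thus did not share a direction, with H2-Aa at 46.0 in Tyk2-/- and 61.3 in Tyk2+/+ β-cells and H2-Ab1 at 284 and 264. The median over the members was −0.01, beside 0.01 over all genes.

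At 6w the log2 differences between genotypes ran from −0.24 (H2-Aa) to 0.25 (H2-Ab1), with a median of 0.01 beside 0.03 over all genes. H2-Eb1 had a difference of 0.01, with signals of 16.3 in Tyk2-/- and 16.2 in Tyk2+/+ β-cells. Again 0 of 9 members were called, against 1.26% of all genes called higher and 1.09% called lower, and none had a ratio above 2 or below 0.5, against 1.31% and 1.82%. These differences carry no measure of the spread between mice, since each array is 1 pool.

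The measured class II genes other than Ciita lie together on chromosome 17, with genes of the class I pathway among them. Among the measured genes, in the order of the RefSeq table, H2-Ab1, H2-Aa and H2-Eb1 follow each other. The nearest measured genes beside them are the lncRNA gene Gm20506 on one side and H2-Eb2 on the other. Gm20506 had signals of 49.9 (Tyk2-/-) and 52.0 (Tyk2+/+) at 11w, against 44.1 (Tyk2-/-) and 56.5 (Tyk2+/+) at 6w, with log2 differences with age of 0.18 (Tyk2-/-) and −0.12 (Tyk2+/+). Neither neighbour was called, and neither had a ratio near those of the 3 chains. Further along, the immunoproteasome genes Psmb8 and Psmb9 had log2 differences of 1.18 and 0.72 in Tyk2-/- and of 1.32 and 1.44 in Tyk2+/+ mice, without being called. Tap1 and Tap2, the peptide transporter genes that alternate with them, had differences of 0.02 and 0.17 in Tyk2-/- and of −0.14 and 0.01 in Tyk2+/+ mice. Other genes of the region, H2-Pb, H2-DMb2 and H2-Ea, had differences between 0.07 and 0.44, and none of the 3 was called. H2-Ea, which NOD mice do not transcribe, had signals of 16.2 (Tyk2-/-) and 14.5 (Tyk2+/+) at 11w and of 13.5 and 12.6 at 6w, below the array medians.

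**Figure D3:**
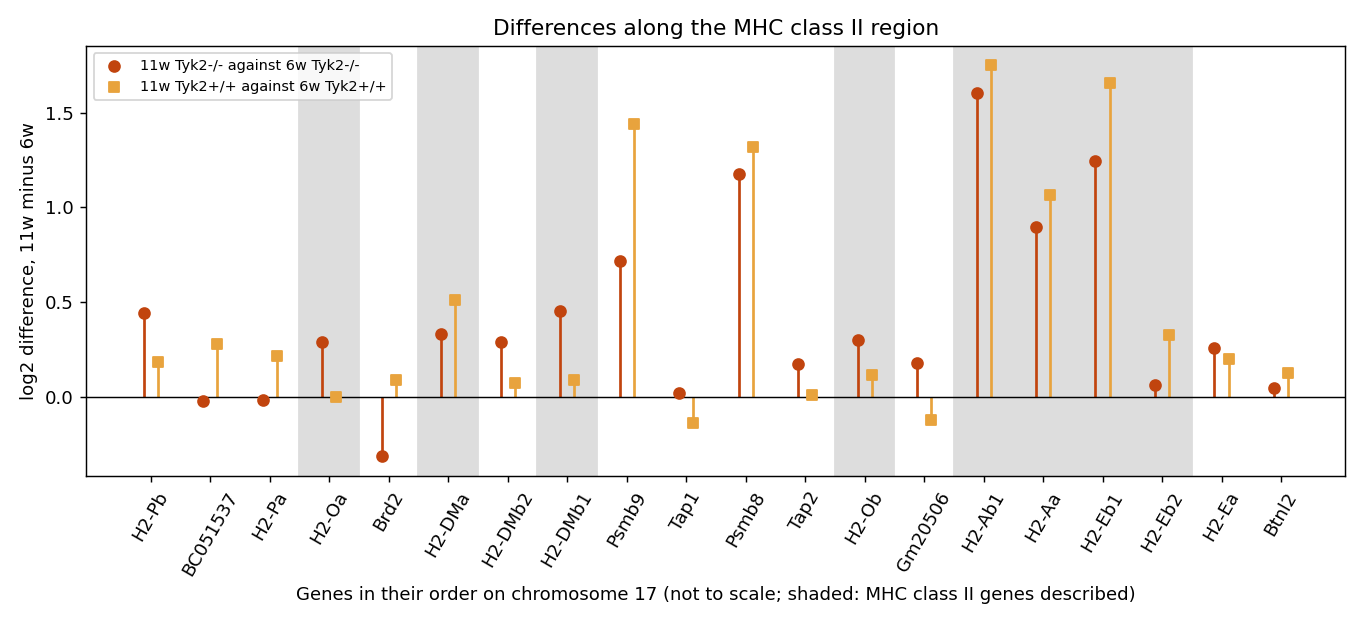
Log2 difference between the 11w and the 6w array for 20 measured genes of the MHC class II region of chromosome 17, in their order and not to scale, with the described class II genes shaded. The neighbours H2-Ab1, H2-Aa and H2-Eb1 lie at 0.90 to 1.75, Psmb8 and Psmb9 at 0.72 to 1.44 and Tap1 and Tap2 at −0.14 to 0.17.

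The factors that act on class II promoters gave no call. Over all genes, 1.09% to 2.14% were called in a given direction in a comparison. No call in so short a list is near that share, and nothing is read from it. Of 10 measured genes for the RFX, NF-Y and CREB factors and the acetyltransferases that work with them, 0 were called in any comparison, and the median log2 difference with age was −0.13 in Tyk2-/- and −0.06 in Tyk2+/+ mice. Crebbp, an acetyltransferase, had −1.15 in Tyk2-/- and −0.85 in Tyk2+/+ mice. Kat2b had −0.18 and −0.87, and Rfxap, a subunit of RFX, had −0.37 and −0.80. Of 8 measured genes on the route from interferon-γ to Ciita, 0 were called, with medians of 0.18 and −0.03. In this list, Irf2, a factor that binds the interferon-inducible promoter of Ciita, had log2 differences with age of −0.999 (Tyk2-/-) and −0.44 (Tyk2+/+), with signals of 151 (Tyk2-/-) and 137 (Tyk2+/+) at 11w, against 302 (Tyk2-/-) and 185 (Tyk2+/+) at 6w. The receptor chain Ifngr1 had log2 differences with age of 0.48 (Tyk2-/-) and −0.35 (Tyk2+/+). Jak1, a kinase of that receptor, had a difference between the 6w genotypes of −1.22, at signals of 33.5 (Tyk2-/-) and 78.0 (Tyk2+/+), and was not called. At 11w its signals were 36.6 (Tyk2-/-) and 43.2 (Tyk2+/+). Jak1, Kat2b and Rfxap each had their highest signal on the 6w Tyk2+/+ array, the one that stood apart in markers of mature β-cells.

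Genes that prepare peptides or remove class II molecules gave no call either. With 1.09% to 2.14% of all genes called in a given direction, nothing is read from this in such short lists. Of 8 measured genes of endosomal processing, 0 were called, with medians with age of 0.01 in Tyk2-/- and −0.04 in Tyk2+/+ mice. The protease gene Ctsl had −0.40 and −1.05, Ifi30, a thiol reductase of the endosome, had −0.78 and −1.01, and the protease gene Ctsh had its largest difference between the 11w genotypes, −0.91. Of 3 measured genes of class II turnover, Marchf8, a ubiquitin ligase, had 0.53 and −0.59, and 0 were called. Of 7 costimulatory ligands and receptors, 0 were called, and their differences with age lay between −0.13 and 0.44 in Tyk2-/- and between −0.30 and 0.09 in Tyk2+/+ mice. The largest was that of Cd274, which encodes PD-L1, in Tyk2-/- mice.

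Beside the class II median of 0.33 in both genotypes, the median log2 difference with age was 0.72 in Tyk2-/- and 1.32 in Tyk2+/+ mice for 11 class I genes and 0.67 and 1.22 for 8 interferon-induced GTPases. Within class II, the chain genes H2-Ab1, H2-Aa, H2-Eb1 and H2-Eb2 had medians of 1.07 (Tyk2-/-) and 1.36 (Tyk2+/+). The 4 genes of peptide exchange had medians of 0.31 (Tyk2-/-) and 0.10 (Tyk2+/+). These medians are descriptions and were not tested. Of the 11 class I genes, B2m (the light chain) was called higher in both genotypes, by 4.54 (Tyk2-/-) and 4.37 (Tyk2+/+). Its signals were 192544 (Tyk2-/-) and 183270 (Tyk2+/+) at 11w, above those of Ins2, against 8255 and 8874 at 6w. B2m, Ins2 and Iapp shared the same 11w genotype difference of 0.07. Whether the top of the signal scale shaped the B2m change was not tested. H2-D1, a heavy chain, and Psmb10 had differences of 1.68 and 1.502 in Tyk2-/- and of 1.62 and 1.84 in Tyk2+/+ mice without a call. Of the 8 GTPases, 4 were called higher in each genotype (Gbp3, Igtp and Iigp1 in both, Irgm2 in Tyk2-/- and Gbp2 in Tyk2+/+ mice). Gbp2 was called lower in 11w Tyk2-/- than in 11w Tyk2+/+ β-cells. Over all genes, 1.62% were called higher with age in Tyk2-/- and 2.14% in Tyk2+/+ mice, and 1.35% lower in 11w Tyk2-/- β-cells. H2-K1, another class I heavy chain, had differences of 1.10 (Tyk2-/-) and 1.35 (Tyk2+/+), also without a call.

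The genes whose pattern over the 4 arrays was closest to that of H2-Eb1 and of H2-Ab1 were sought among 8810 genes with a signal of at least 2 times the array median on 1 array or more. Likeness was the largest gap, over the 4 arrays, between log2 signals centred on each gene's own mean. Closest to H2-Eb1 were Gm14980, Psmb10, Serpina10, Serpina3n and H2-K1, with gaps of 0.14 to 0.20. Closest to H2-Ab1 were Igtp, Psmb8, Mir450-2, Bst2 and Psmb10, with gaps of 0.15 to 0.29. H2-Aa ranked 27th and H2-Ab1 30th in closeness to H2-Eb1. In closeness to H2-Ab1, H2-Eb1 ranked 11th and H2-Aa 124th. B2m ranked 7787th for H2-Eb1 and 6885th for H2-Ab1. A gene can pass the signal filter through an 11w array alone, as H2-Eb1 did. These are descriptions over 4 arrays that share 1 normalization.

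Dendritic cells, macrophages and B cells carry class II transcripts, so the markers of these and other cells are given beside the class II values. Ptprc, which encodes CD45, the antigen that the sort excluded, had signals of 15.9 (Tyk2-/-) and 15.2 (Tyk2+/+) at 11w, against 13.4 (Tyk2-/-) and 12.8 (Tyk2+/+) at 6w, below the array median throughout. The summed signal of 12 pan-leukocyte genes was 220 (Tyk2-/-) and 252 (Tyk2+/+) at 11w, against 189 (Tyk2-/-) and 184 (Tyk2+/+) at 6w. Cd48 and Ptpn6 were called higher with age in Tyk2+/+ mice, by 1.08 and 1.23, against 2.14% of all genes. Both were called lower in 11w Tyk2-/- than in 11w Tyk2+/+ β-cells, against 1.35% of all genes. With age in Tyk2-/- mice 0 of the 12 were called, against 1.62% of all genes higher and 1.35% lower. Arhgdib, the pan-leukocyte gene with the highest age difference in Tyk2-/- mice, had signals of 45.9 (Tyk2-/-) and 34.5 (Tyk2+/+) at 11w, against 27.2 (Tyk2-/-) and 26.1 (Tyk2+/+) at 6w, or log2 differences of 0.75 (Tyk2-/-) and 0.41 (Tyk2+/+), in the same order of ages as the class II chains. No class II gene was called between the 11w genotypes, and the 9 had a summed signal of 484 (Tyk2-/-) and 490 (Tyk2+/+) at 11w, against 230 (Tyk2-/-) and 220 (Tyk2+/+) at 6w. Most of the 11w sums came from H2-Ab1 alone, at 284 (Tyk2-/-) and 264 (Tyk2+/+), so they say little about the other members.

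The 19 macrophage and dendritic cell markers had summed signals of 324, 335, 295 and 281 in the same order. Medians with age were 0.07 in Tyk2-/- and 0.17 in Tyk2+/+ mice. In any comparison 0 were called, against 1.09% to 2.14% of all genes in a given direction. Among them, Lyz2 (lysozyme) had signals of 31.5 (Tyk2-/-) and 37.8 (Tyk2+/+) at 11w, against 20.2 (Tyk2-/-) and 20.2 (Tyk2+/+) at 6w, and Cx3cr1 had 28.0, 37.1, 24.1 and 21.4. Their 11w signals lay above their 6w signals in either genotype, but the list was mixed. The difference with age was above 0 for 14 of the 19 in each genotype. It was above the shift of the array medians for 8 in Tyk2-/- and 10 in Tyk2+/+ mice. Fcgr3 and Zbtb46 had lower signals at 11w than at 6w in both genotypes. Of the 19, 12 lay below the array median on all 4 arrays, among them Itgax, Csf1r, Flt3 and Adgre1, and 4 lay above it on all 4, namely Lyz2, Cx3cr1, Batf3 (1.25 to 1.46 times) and Cd14 (1.01 to 1.23 times).

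The 11 B cell markers had summed signals of 185 (Tyk2-/-) and 190 (Tyk2+/+) at 11w, against 175 (Tyk2-/-) and 170 (Tyk2+/+) at 6w, with 0 called. Of these, 5 lay below the array median on all 4 arrays, among them Ms4a1, which encodes CD20, with signals between 12.4 and 13.5, and 4 lay above it on all 4, among them Cd79a with signals between 19.2 and 21.6. The 11 T and NK cell markers had sums of 169, 166, 159 and 151 in the same order, with 0 called. Over all genes, 1.09% to 2.14% were called in a given direction, so 0 calls in either short list are near that share. The 11 endothelial markers had sums of 191, 180, 162 and 162. Of these markers, Plvap was called higher in 11w Tyk2-/- β-cells against both 6w Tyk2-/- and 11w Tyk2+/+ β-cells. Over all genes, 1.62% and 1.51% were called higher in these comparisons. Plvap lay below the array median on all 4 arrays and was not called with age in Tyk2+/+ mice. The summed signal of each marker list was higher at 11w than at 6w within a genotype, as were the array medians. The part of other cells in the class II signals was not tested.

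**Figure D4:**
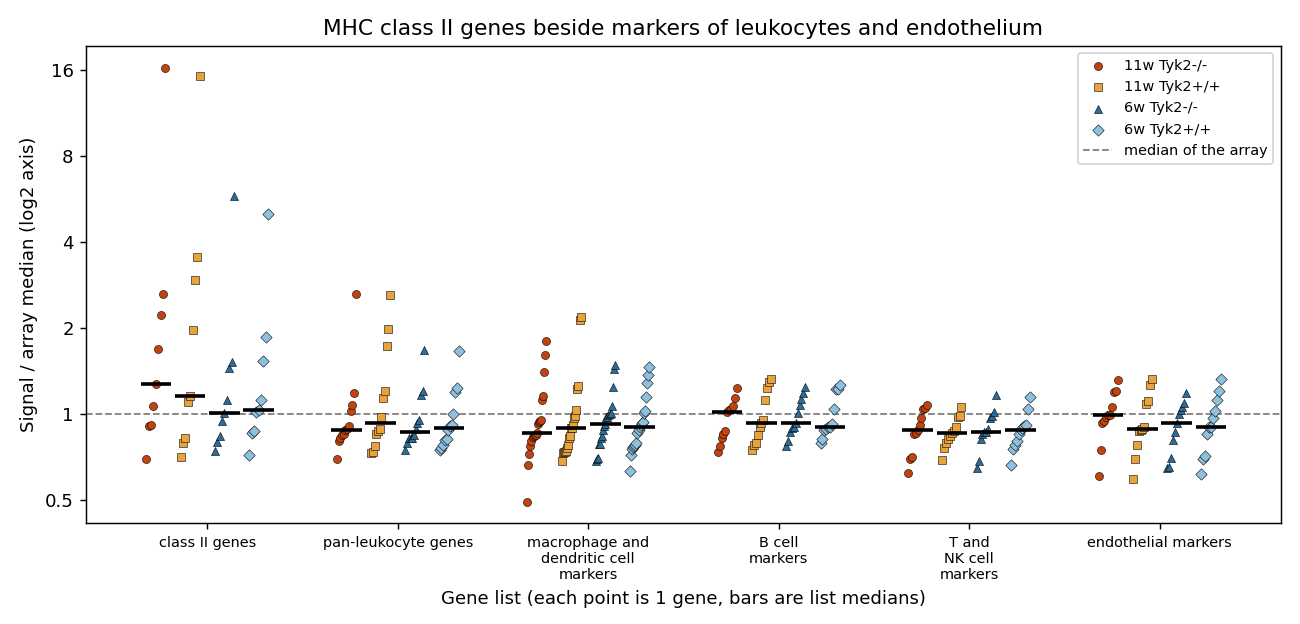
Signal over the array median (log2 axis) of each MHC class II gene and of each marker of leukocytes and endothelium on the 4 arrays, with list medians as bars. At 11w the class II genes lie at 0.697 to 16.3 times the array median, and the markers at 0.495 (C1qb) to 2.63 times (Arhgdib).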

How the data were processed

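RNA of sorted β-cells had been labelled with the GeneChip WT Pico kit and hybridised to 4 Clariom D mouse arrays, 1 per condition. The authors deposited 1 table of normalized signal intensity values, on a linear scale as the values show. Submitters' processing notes name Affymetrix Expression Console, and its normalization is not given in the sources used here. Of 65956 features, 30638 carried 1 gene symbol, 2176 several and 33142 none, and 354 genes with several features were read from the brightest. Log2 values were computed in Python 3.11.15 (NumPy 2.4.6, pandas 2.3.3, matplotlib 3.10.9 for plots). Ages were compared within each genotype and genotypes within each age, and the Z score used a window of features nearest in mean signal. Alternatives were median centring, quantile normalization, another window, a single SD, a ratio limit alone, an added constant and a filter on dim members. The methods state the Z score and ratio limits but not the calculation, and print the ratio limits with opposite signs, so they were read as above 1.5 and below 0.66. The calling was tested on simulated data. The number of arrays limits the precision. Members and gene lists were chosen with earlier results of these data known. Named are all members and, from each other list, the called genes and up to 3 with the largest differences; further cell type markers, neighbours of the locus and Tap1 and Tap2 were named after their values were seen. No position is given for array features, whose genome build is not given in the sources used here.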

Additional observations from a re-analysis of the deposited data

Results flagged for a closer look

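A signal outside the comparisons came from the feature that the array annotation gives to both Cd74 and Mir5107, which was assigned to neither of the 2. It read 2026 (Tyk2-/-) and 2810 (Tyk2+/+) at 11w, against 18.1 (Tyk2-/-) and 23.5 (Tyk2+/+) at 6w, or 116 and 162 times the array median at 11w and 1.12 and 1.502 times at 6w, in the same order of genotypes. The log2 difference with age was 6.81 in Tyk2-/- (the 3rd highest difference of 65956 features, with a Z score of 5.67) and 6.90 in Tyk2+/+ mice (the 5th highest difference, with a Z score of 5.87). The 6w signals lay near the array medians and whether they were above background was not tested, and if they were not, these differences are lower bounds. Between genotypes it was −0.47 at 11w and −0.38 at 6w, and the Z scores were −0.52 and −1.05. Which of the genes the signal belongs to cannot be told from these data.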

How the results depend on the processing

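The call of H2-Eb1 with age held in Tyk2-/- and in Tyk2+/+ mice under median centring, quantile normalization, a narrower window for the Z score, a single SD for every feature and a ratio limit of 2 without a Z score, and no member was called between genotypes under any of these. With centred arrays, 0.991% (Tyk2-/-) and 1.04% (Tyk2+/+) of all genes were called higher with age. The shares called lower were 1.83% and 2.21%. With 1 SD over all features the count of members called with age was 2 in Tyk2-/- and 2 in Tyk2+/+ mice (H2-Ab1 and H2-Eb1), against 1.01% and 0.898% of all genes called higher, and with a ratio above 2 alone it was 2 and 3 (H2-Aa as well), against 1.43% and 1.27%. The median log2 difference with age, 0.33 in both genotypes, was 0.22 in Tyk2-/- and 0.18 in Tyk2+/+ mice with centred arrays, 0.26 and 0.19 with quantile normalization, 0.21 and 0.17 with 16 added before log2, and 0.45 and 0.51 among 7 members that reached the median of at least 1 array, a filter that a member can pass through an 11w array. The 11w genotype median was −0.21 over these 7. No paired analysis was possible because each condition has 1 array, and no array could be left out. Signals at the array median limit what can be seen of H2-Eb1 at 6w and of H2-Eb2, H2-DMb1, H2-Oa, H2-Ob and Ciita.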
